A study of Mus musculus with 12 samples.

Results

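The miR-17-92 cluster and its paralogue, the miR-106b-25 cluster, were described in the frontal cortex (FCx) and the hippocampus (HP) of the mouse. Members were the rows of the count files named mmu-miR-17, mmu-miR-18a, mmu-miR-19a, mmu-miR-20a, mmu-miR-19b and mmu-miR-92a for miR-17-92, and mmu-miR-106b, mmu-miR-93 and mmu-miR-25 for miR-106b-25, without star forms (the prefix, which stands for mouse, is left out below). These are 9 of the 469 miRNAs listed in the files, 6 of the first cluster and 3 of the second. Tests were run on 431 miRNAs, those whose summed count reached 2 in one of the regions, and 8 of the 9 members were among them. The exception was miR-19a.

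The study measured small RNA by miRNA-Seq to compare the regions. The mice were untreated male C57BL/6J animals of 8 weeks. Tissue of 3 mice was pooled for each region, and 3 libraries were made from the RNA of each pool, which differed in a 6-nt index at the end of the 5′ adaptor (index 3, UUAGGC; index 7, CAGAUC; index 11, GGCUAC). Each library was sequenced in an individual lane and in a lane pooled with the other libraries of its region. The index was joined directly to the first base of each miRNA. The counts of both runs were summed, so n = 3 libraries per region, and the spread between them is technical and holds no difference between animals. The summed libraries held 391410 to 1461732 counts in FCx and 3206221 to 4956117 in HP.

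Both clusters are polycistrons. Drosha cuts the hairpins out of a shared primary transcript, Dicer removes the loop, and 1 arm of the duplex is usually kept as the mature miRNA. Proteins of the Argonaute family then use the seed, bases 2 to 8, to pair with target mRNAs. The miR-17-92 cluster is known from Myc-driven growth, from the repression of Bcl2l11 (Bim) and from neural progenitors, whereas miR-106b-25 is hosted by a DNA replication gene and has been linked to the cell cycle inhibitor Cdkn1a (p21) and to adult neural stem cells.

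In NCBIM37, the build of the deposited alignments, the miR-17-92 hairpins lay within 836 bp at chr14:115442893-115443728 on the plus strand. All 6 are exonic in the noncoding host gene Mir17hg (chr14:115442101-115445949). The miR-106b-25 hairpins lay within 498 bp at chr5:138606549-138607046 on the minus strand, in intron 13 of transcript Mcm7-001 and intron 8 of Mcm7-002. Mcm7 codes for a subunit of the replicative helicase, and the hairpins of miR-93 and miR-25 also overlap an exon of its transcript Mcm7-010. The mature miR-92a and miR-19b sequences each have a further hairpin in the paralogous miR-106a-363 cluster (chrX:50094870-50095744, minus strand), so their counts cannot be credited to miR-17-92 alone.

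The mature sequences are shown by seed, since the seeds cut across the clusters. They are RefSeq sequences (GRCm38.p6), their hairpins are identical in NCBIM37, and all 9 members were matched. Capitals mark the seed. In the miR-17 seed family, miR-17 and miR-20a come from miR-17-92, and miR-106b and miR-93 from miR-106b-25.
miR-17: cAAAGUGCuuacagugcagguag
miR-20a: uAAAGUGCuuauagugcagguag
miR-106b: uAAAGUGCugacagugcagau
miR-93: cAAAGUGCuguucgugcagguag
The seed of miR-25 is also shared across the clusters, by miR-92a of miR-17-92 and miR-25 of miR-106b-25.
miR-92a: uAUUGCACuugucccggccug
miR-25: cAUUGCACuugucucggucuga
The remaining members belong to miR-17-92 alone, with a seed of their own for miR-18a and a shared seed for the miR-19 pair.
miR-18a: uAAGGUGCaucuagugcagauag
miR-19a: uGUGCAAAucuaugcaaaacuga
miR-19b: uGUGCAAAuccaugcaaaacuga
The authors' alignment allowed 2 mismatches. Of the 36 pairs of members, 2 differ by no more than that in these RefSeq sequences, which may differ at the ends from the miRBase version that the authors aligned to: miR-17 and miR-20a (C1U and C12U, positions counted from the 5′ end, miR-17 first) and miR-19a and miR-19b (U11C). Reads of these pairs may be exchanged. The same holds for some related miRNAs outside the members. From the X-linked cluster, miR-106a is 1 mismatch from miR-17, and miR-20b is 2 from miR-17 and from miR-20a. Also from that cluster, miR-18b is 2 mismatches from miR-18a. The abundant miR-92b, from another locus, is 2 mismatches from miR-92a.

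The counts of miR-17-92 were almost all miR-92a. Over the 6 libraries, miR-92a gave 5428 of the 5541 counts of the cluster, which is 98.0% (exact 95% interval 97.6 to 98.3%), followed by miR-20a with 65, miR-17 with 30, miR-19b with 15, miR-18a with 2 and miR-19a with 1. In miR-106b-25, miR-25 gave 8836 of 14490 counts (61.0%, interval 60.2 to 61.8%), miR-93 gave 4579 (31.6%) and miR-106b gave 1075 (7.42%). The reads carry no molecular identifiers, so counting error is all that the intervals and limits given here include. The mature sequences are of nearly the same length, 21 to 23 nt, so levels were compared without a length correction, but how well each miRNA ligates was not measured.

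The miR-25 seed family held the most abundant member of each cluster. Levels are given as CPM, counts divided by the miRNA total of the library and multiplied by 1000000, with indexes in the order 3, 7 and 11. In FCx miR-92a had 226, 404 and 368 counts, or 577, 276 and 564 CPM, and in HP it had 1271, 1679 and 1480 counts, or 396, 339 and 365 CPM. The HP libraries were close together, and the FCx libraries lay on both sides of them, with index 7 below and indexes 3 and 11 above. In FCx miR-25 had 332, 818 and 365 counts, or 848, 559.6 and 559.4 CPM, and in HP it had 1853, 2956 and 2512 counts, or 578, 596 and 619.7 CPM. Here 1 FCx library, that of index 3, stood above all others. The FCx libraries of indexes 7 and 11 lay below all HP libraries, so the regions overlapped. The FCx mean of miR-25 was 656 ± 167 CPM and its HP mean 598 ± 20.9 CPM (SD, n = 3 libraries), and those of miR-92a were 473 ± 170.1 CPM and 367 ± 28.9 CPM. By mean level, miR-25 was miRNA number 64 in FCx and 65 in HP, and miR-92a was number 72 and 83.

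The miR-17 seed family was read almost only from miR-106b-25. Of its 5749 counts, 5654 were of miR-93 and miR-106b and 95 of miR-17 and miR-20a. In FCx miR-93 had 55, 154 and 409 counts, or 141, 105 and 627 CPM, and in HP it had 354, 837 and 2770 counts, or 110.4, 169 and 683 CPM. The index 11 library was far above the others in each region. In FCx miR-106b had 29, 21 and 71 counts, or 74.1, 14.4 and 109 CPM, and in HP it had 275, 113 and 566 counts, or 85.8, 22.8 and 139.6 CPM. Its lowest library was that of index 7 in each region, and each HP library was above the FCx library with the same index. The SD over the 3 libraries was as large as the mean for miR-93, with 291 ± 291 CPM in FCx and 321 ± 315 CPM in HP. For miR-106b the means were 65.8 ± 47.8 CPM and 82.7 ± 58.5 CPM.

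The miR-17-92 members of the miR-17 seed family were near the limit of detection. In FCx miR-20a had 8, 3 and 2 counts (20.4, 2.05 and 3.07 CPM), and in HP it had 36, 2 and 14 counts (11.2, 0.404 and 3.45 CPM). The index 3 library was the highest in each region. In FCx miR-17 had 0, 0 and 1 counts, and in HP it had 15, 6 and 8 counts (4.68, 1.21 and 1.97 CPM). The 1 FCx count was in the index 11 library.

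The miR-19 and miR-18 seed families of miR-17-92 had hardly any reads. In FCx miR-19b had 1, 2 and 0 counts, and in HP it had 6, 5 and 1 counts (1.87, 1.01 and 0.247 CPM). No FCx library held miR-18a, of which HP held 1, 1 and 0 counts. For miR-19a the whole series gave a single count, in the HP library of index 11. In HP, miR-18a, miR-19a and miR-19b together thus rested on 15 counts.

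**Figure D1:**
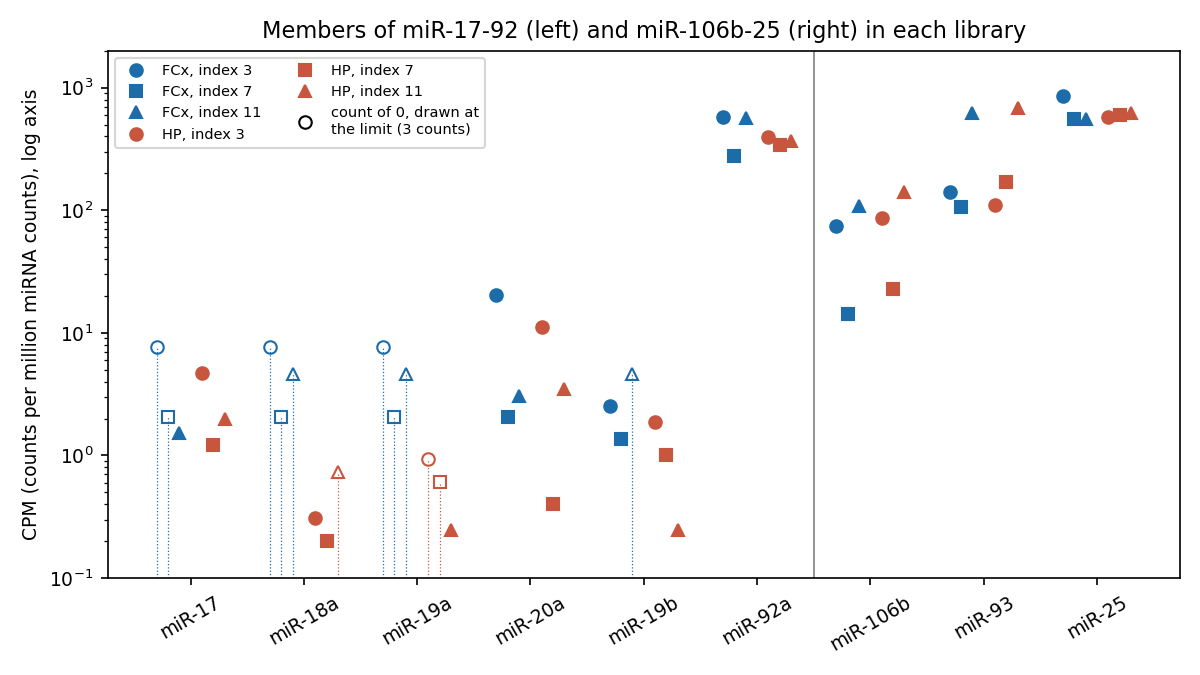
CPM (log axis) of each member in each of the 6 libraries; colour gives the region, FCx or HP, and the symbol gives the index. Open symbols are libraries with a count of 0, drawn at the CPM of 3 counts; miR-92a and the miR-106b-25 members lie between 14.4 and 848 CPM, and all values of the other 5 members are at or under 20.4 CPM.

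By the mean over the 6 libraries, the members were ordered miR-25 (627 CPM), miR-92a (419.7 CPM), miR-93 (306 CPM), miR-106b (74.2 CPM), miR-20a (6.77 CPM), miR-17 (1.57 CPM), miR-19b (1.18 CPM), miR-18a (0.0856 CPM) and miR-19a (0.0411 CPM). Of these neighbours, miR-93 was above miR-106b, and miR-106b above miR-20a, in 6 of 6 libraries. The steps above them held in fewer libraries: miR-25 was above miR-92a in 5 of 6 and miR-92a above miR-93 in 4 of 6, the exceptions being index 11 libraries. Below miR-20a the neighbours overlapped in at least 1 region, and in FCx miR-19b (1.31 ± 1.28 CPM) was above miR-17 (0.511 ± 0.885 CPM), opposite to HP.

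Cluster against cluster, miR-106b-25 gave the larger sum in 6 of 6 libraries. The sum of the 6 miR-17-92 members was 600.4, 279.8 and 569 CPM in FCx, and 415, 342 and 371 CPM in HP. The sum of the 3 miR-106b-25 members was 1063, 679 and 1295 CPM in FCx and 774, 788 and 1443 CPM in HP. The FCx ratios of miR-106b-25 over miR-17-92 were 1.77, 2.43 and 2.28, and the HP ratios were 1.87, 2.31 and 3.89. On the log2 scale the ratio averaged 1.10 ± 0.24 in FCx and 1.36 ± 0.54 in HP (SD, n = 3), and the regions overlapped. Together the clusters made up 0.0959 to 0.186% of all miRNA counts of a library.

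This ratio rests on miR-92a. Without miR-92a and miR-19b, the members that also have an X-linked hairpin, the miR-17-92 sum fell to an FCx mean of 9.03 CPM and an HP mean of 7.90 CPM. The mean log2 ratio of miR-106b-25 to it was 7.40 in FCx and 7.44 in HP. As cluster sums are scores over chosen members, they were not tested.

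**Figure D2:**
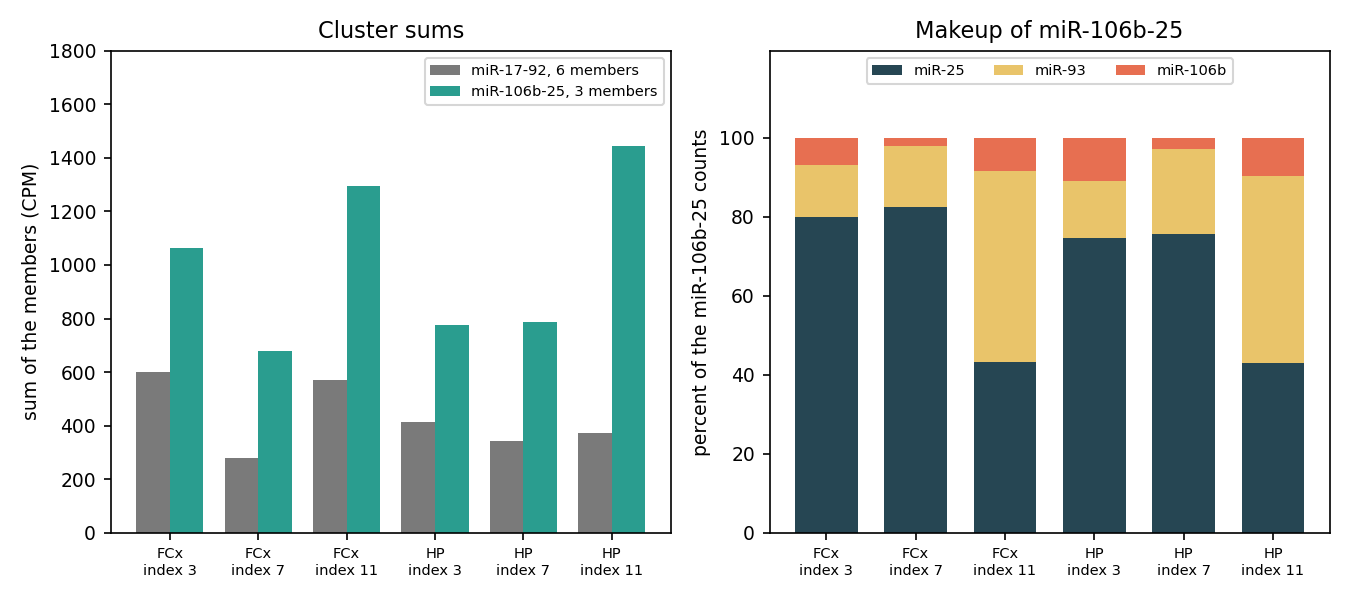
Left, sum of the members of each cluster in CPM for each of the 6 libraries; right, the share of the miR-106b-25 counts that came from each member. The miR-106b-25 bar is the taller in every library, and the share of miR-25 is 43.2% and 43.0% in the index 11 libraries against 74.7 to 82.4% in the others.

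The makeup of miR-106b-25 followed the index in both regions. Ratios between members within a library do not depend on its depth or normalization. For indexes 3, 7 and 11, miR-93 over miR-25 counts came to 0.166, 0.188 and 1.12 in FCx, against 0.191, 0.283 and 1.10 in HP. With index 11, miR-93 thus differed from miR-25 by no more than the counting error in FCx (interval 0.971 to 1.29) and exceeded it in HP (1.04 to 1.16), whereas with the other indexes it was far below miR-25. For miR-93 over miR-106b, FCx gave 1.90, 7.33 and 5.76, and HP gave 1.29, 7.41 and 4.89. Index 3 gave the lowest ratio and index 7 the highest in both regions.

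Whether the level of a miRNA differed between indexes was tested for all 431 miRNAs with edgeR's quasi-likelihood test, which was given the region as a covariate, and Benjamini-Hochberg adjustment. It called 264 miRNAs, or 61.3%, and 3 of the 8 members tested, namely miR-93 (adjusted p = 8.8e-18), miR-106b (adjusted p = 6.6e-13) and miR-20a (adjusted p = 4.9e-05), all from the miR-17 seed family. The member share was below that of all miRNAs. However, the uncalled miR-17, miR-19b and miR-18a had only 30, 15 and 2 counts, so this share is not read as a property of the members. The call of miR-20a was lost without the HP library of index 3 (adjusted p = 0.0682) or of index 7 (adjusted p = 0.121). In edgeR's test miR-25 (adjusted p = 0.775), miR-92a (adjusted p = 0.151), miR-17, miR-19b and miR-18a did not pass, but miR-92a passed under 6 of the 13 alternatives, among them DESeq2's test (adjusted p = 0.0221).

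For miR-93, index 11 was above index 7 by 5.95-fold in FCx (counting interval 4.93 to 7.21) and by 4.05-fold in HP (3.74 to 4.38). For miR-106b the same ratio was 7.57 (4.60 to 13.0) and 6.12 (4.996 to 7.56). For miR-25 it was 1.00 (0.881 to 1.13) in FCx and 1.04 (0.985 to 1.10) in HP, so these counting intervals held 1. Other pairs of indexes did differ for miR-25. Index 3 over index 7 gave 1.52 (1.33 to 1.72) in FCx and 0.969 (0.914 to 1.03) in HP. Index 11 over index 3 gave 0.660 (0.567 to 0.768) in FCx and 1.07 (1.01 to 1.14) in HP. Among the 139 miRNAs that averaged 100 CPM or more, the median fold between the highest and the lowest index was 4.32 in FCx and 3.85 in HP. Against this background the folds of miR-93 (5.95 and 6.19) were ordinary, and those of miR-25 (1.52 and 1.07) and of miR-92a (2.09 and 1.17) were among the smaller ones, with 8.63 and 1.44% of these miRNAs having a smaller fold than miR-25 and 19.4 and 2.16% a smaller fold than miR-92a.

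**Figure D3:**
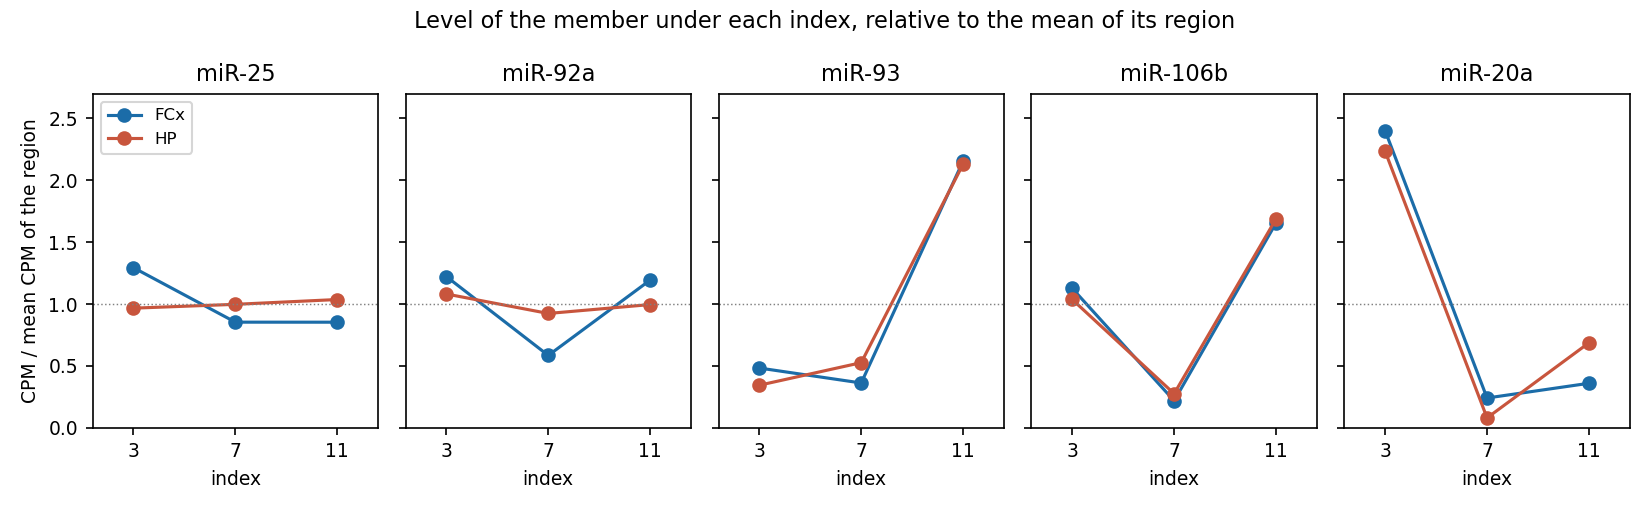
CPM of the 5 members with the most counts under each index, divided by the mean of the 3 libraries of the region; lines join the libraries of FCx and of HP. In both regions miR-93 and miR-106b are highest with index 11 and miR-20a with index 3, while miR-93 is lowest with index 7 in FCx and with index 3 in HP; miR-25 and miR-92a are nearly flat in HP.

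Between FCx and HP no member passed when the index was left out of the test. With edgeR's quasi-likelihood test (TMM, n = 3 libraries per region), 2 of 431 miRNAs were called (0.464%), neither a member, and at an unadjusted p under 0.05 there were 17 miRNAs and 0 members. DESeq2 called 12 miRNAs and 0 members, also with 0 members at an unadjusted p under 0.05. On the log2 scale, FCx over HP gave -0.12 (SE 0.69) for miR-92a, -0.34 (SE 0.66) for miR-25, -0.72 (SE 1.06) for miR-93 and -0.97 (SE 1.02) for miR-106b, each with an adjusted p of 0.992. These standard errors, from the fit without the index, allow differences of over 2-fold for each of them. The median over all 431 miRNAs was -0.37 with TMM and 0.03 with library totals, and the sign of miR-92a (0.36) and miR-25 (0.13) was positive with library totals.

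The same index was used in each region, and FCx and HP libraries with the same index deviated together from their region means (r = 0.748, 0.841 and 0.829 across the 431 miRNAs). With the index as a block, edgeR called 77 miRNAs (17.9%), 55 of them higher in HP (12.8%), and 1 member, miR-106b, at a log2 fold change of -0.86 (SE 0.30, adjusted p = 0.0284). With the block and library totals it called 56 miRNAs (13.0%) and 0 members, with -0.40 and an adjusted p of 0.570 for miR-106b. The blocked call was also lost without any 1 index, with adjusted p of 0.262, 0.170 and 0.583 without index 3, 7 and 11. For miR-92a, miR-25 and miR-93 the block gave -0.13 (SE 0.28), -0.31 (SE 0.29) and -0.58 (SE 0.29). These standard errors are smaller than those without the block. By counts alone, the HP over FCx ratio of miR-106b was 1.16 (interval 0.788 to 1.76), 1.59 (0.990 to 2.66) and 1.28 (1.00 to 1.67) for indexes 3, 7 and 11. It was thus above 1 in 3 of 3 pairs. Besides miR-106b this held only for miR-17 among the 8 members tested, and for 18.6% of all miRNAs tested. The FCx and HP libraries overlapped for 9 of the 9 members, while they did not for 9.05% of the miRNAs tested.

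For the other abundant members the pairs did not point the same way. The HP over FCx ratio of miR-93 was 0.786 (0.590 to 1.06), 1.60 (1.35 to 1.92) and 1.09 (0.982 to 1.21) for indexes 3, 7 and 11. That of miR-92a was 0.687 (0.596 to 0.794), 1.23 (1.10 to 1.37) and 0.647 (0.577 to 0.728), so it was below 1 with indexes 3 and 11 and above 1 with index 7. That of miR-25 was 0.681 (0.606 to 0.768), 1.07 (0.986 to 1.15) and 1.11 (0.992 to 1.24). In 6 of the 9 comparisons of 2 indexes for the same member, the counting intervals did not overlap.

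For the rare members, FCx was too shallow to show most differences. A level of 3 counts corresponded to 7.66, 2.05 and 4.60 CPM in the FCx libraries and 0.936, 0.605 and 0.740 CPM in HP, and to 1.20 CPM over FCx and 0.246 CPM over HP. At 3 counts per region, 6 members were detected in FCx and 7 in HP, and at 1 count 7 and 9. In single lane files, 4 to 6 members were listed in FCx and 5 to 8 in HP.

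The gap was widest for miR-17. It had 1 count over FCx, 0.399 CPM (exact interval 0.0101 to 2.22), and 29 counts over HP, 2.37 CPM (1.59 to 3.41). With the HP level of the same index, 4.89 counts would be expected in FCx. The ratio of HP over FCx was 5.95, with a counting interval of 0.986 to 243 that holds 1. The fitted test of edgeR gave an adjusted p of 0.992 without the index and of 0.242 with the index as a block. Without the FCx library of index 11, which held the 1 count, FCx was at 0, with an unadjusted p of 0.0471 and an adjusted p of 0.995. With counts pooled over the indexes, the ratio of miR-20a was 0.820 (13 and 52 counts, interval 0.441 to 1.64). That of miR-19b was also 0.820 (3 and 12 counts, interval 0.221 to 4.53). With the HP level of the same index, 7.24 counts of miR-20a and 2.37 of miR-19b would be expected in FCx. By index, the ratio of miR-20a was 0.549 (0.251 to 1.37), 0.197 (0.0164 to 1.72) and 1.13 (0.259 to 10.2) for indexes 3, 7 and 11. All these intervals hold 1, so neither member could be told apart between the regions at this depth. For miR-18a and miR-19a, FCx held 0 counts, for which the limit of 3 counts is 1.20 CPM and the upper bound of the exact interval 1.47 CPM. The HP levels of 0.164 and 0.0819 CPM are below both, with 0.417 and 0.161 counts expected in FCx.

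The genome alignments placed the reads on the arms. They held 64 reads on miR-20a-5p, 30 on miR-17-5p and 4550 on miR-93-5p, against 65, 30 and 4579 counts in the count files, and 8716 reads on miR-25-3p against 8836. For miR-92a and miR-106b they held only 3897 and 845 reads, 71.8 and 78.6% of the counts. Of the miR-25-3p reads, 99.2% began at the first base of the mature sequence, and 10.1% were shorter than 18 nt. The deposited alignments run from 4 to 23 nt, with 83.6% at 22 nt and 5.09% under the stated minimum read length of 14 nt, so 3′ ends cannot be read from them.

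The alignment of each miR-92a read is listed at 1 place. There were 3047 on the chromosome 14 hairpin and 850 on the X-linked one, so 78.2% (76.9 to 79.5%, counting error only) were listed at miR-17-92. With indexes 3, 7 and 11 this share came to 89.7, 73.0 and 77.5% of the FCx reads and to 86.5, 73.2 and 75.1% of the HP reads, and was highest with index 3 in both regions. The mature sequence is the same at both hairpins. The genome differs between them at the first base after its 21 nt (T on chromosome 14, A on X). A read must therefore reach beyond the mature sequence to separate the loci. As 3′ ends cannot be read from these alignments, the share gives where reads were listed, and which locus made them was not tested. For miR-19b 9 reads fell on the chromosome 14 hairpin and 6 on X.

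At 2 hairpins of miR-17-92 the other arm gave more reads. The count files list 71 counts of miR-17* against 30 of miR-17, so the star arm held 70.3% (60.4 to 79.0%). They list 20 counts of miR-18a* against 2 of miR-18a (90.9%, 70.8 to 98.9%). The genome alignments held fewer star reads for miR-17, with 50 against 30. For miR-18a they held 19 against 1. Of the 20 miR-18a* counts, 5 were in FCx with index 3 and 14 in HP with index 3. The other 1 was in HP with index 7, where miR-18a also had 1 count. The excess of miR-18a* was thus seen with index 3 only. The star sequences are shown because they outnumber the plain-named arms.
miR-17*: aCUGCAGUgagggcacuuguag
miR-18a*: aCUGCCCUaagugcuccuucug
In HP the counts of miR-17* were 17, 39 and 2 and those of miR-17 were 15, 6 and 8 for indexes 3, 7 and 11. The star form was thus the larger with index 7 and the smaller with index 11. Of the star forms tested, the index passed edgeR's test for miR-17* (adjusted p = 0.0034), miR-18a* (adjusted p = 0.0005) and miR-106b* (adjusted p = 3.4e-09), and the region for none of the 4. Over all miRNAs tested, the index passed for 61.3% and the region for 0.464%, so these star calls are ordinary.

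At the remaining hairpins the plain-named arm was the larger. There were 169 counts of miR-106b* (13.6% of the hairpin), 5 of miR-93* (0.109%) and 2 of miR-20a* (2.99%). No count file listed miR-25*, miR-92a*, miR-19a* or miR-19b*, but the genome alignments held 68 reads on the 5′ arm of miR-25 and 16 on that of miR-92a at chromosome 14.

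Of the 7 miRNAs with a shared seed or from the paralogous cluster, miR-92b was by far the most abundant. It carries the seed of miR-92a and miR-25 and comes from a locus of its own.
miR-92b: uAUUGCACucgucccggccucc
In FCx miR-92b had 2052, 915 and 2669.9 CPM, and in HP it had 1123, 1187 and 1805 CPM. It was 2.83 to 4.94 times as high as miR-92a in the 6 libraries, and 2 mismatches separate their sequences. The counts of miR-92a may therefore hold reads of miR-92b, which was not tested. The region did not pass for miR-92b (log2 fold change -0.07, SE 0.72, adjusted p = 0.992), while the index did (adjusted p = 0.0012). The X-linked members miR-20b and miR-363 had 2 and 1 counts in all, miR-32 had 2, and miR-106a, miR-18b and miR-367 were listed in no file. The hairpins of miR-106a, miR-18b and miR-20b held 0 genome reads.

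The profile of each cluster sum over the 6 libraries was compared with that of 136 other miRNAs that averaged 100 CPM or more. The most alike were miR-154 (Pearson r = 0.9496 of log2 CPM), miR-139-3p (r = 0.907) and miR-9* (r = 0.863) for miR-17-92. For miR-106b-25 they were miR-100 (r = 0.932), miR-22 (r = 0.927) and miR-496 (r = 0.918). The libraries share 2 RNA pools and 3 indexes, and the median r of all candidates was 0.0998 and -0.136. For example, miR-100 had 253, 80.7 and 656 CPM in FCx and 260.4, 136 and 804 CPM in HP, so it too was highest with index 11.

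The runs of a library did not always give the same level. Ratios of pooled over individual lane were formed from CPM for miR-25, miR-92a, miR-93 and miR-106b. In HP with index 3, miR-92a had 288 CPM in the individual lane (587 counts) and 586 CPM in the pooled lane (684 counts), a ratio of 2.03 (interval 1.82 to 2.27). The pooled lane of this library was also higher for most other miRNAs, with a median log2 ratio of 0.46 over 139 miRNAs and an interval without 1 for 84.2% of them. For miR-92a the ratio was 1.62 (1.47 to 1.78) in HP and 1.68 (1.37 to 2.05) in FCx with index 7, larger than for 94.96 and 93.5% of these miRNAs on the absolute log2 scale. With index 11 in HP it was 0.853 (0.753 to 0.965). The largest ratio of these members was that of miR-93 in FCx with index 3, 2.41 (1.37 to 4.26) from 27 and 28 counts, larger than for 97.8% of the abundant miRNAs. For miR-25 the interval left out 1 in 1 of 6 libraries and for miR-93 in 3 of 6. For miR-106b it did in 0 of the 4 libraries with at least 20 counts in the individual lane. With indexes 3 and 7, miR-92a in HP therefore moved more from lane to lane than the difference between its regional means.

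**Figure D4:**
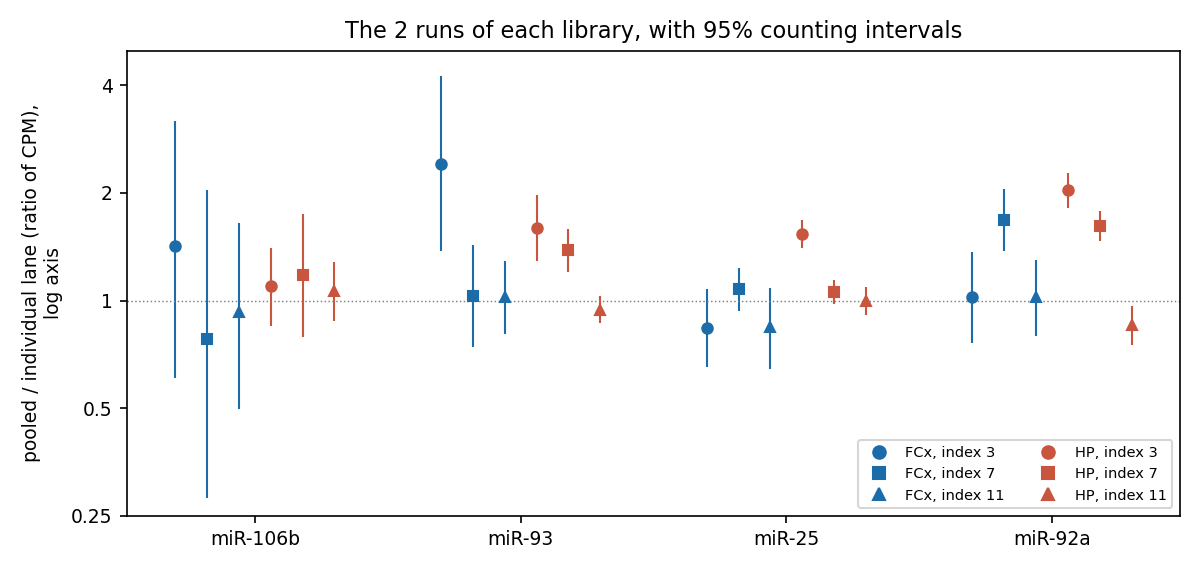
Ratio of the CPM in the pooled lane to that in the individual lane (log axis) for 4 members in each of the 6 libraries, with 95% counting intervals; colour gives the region and the symbol the index. The ratio of miR-92a is 2.03 in HP with index 3 and 1.62 and 1.68 with index 7, and most intervals of miR-106b and miR-25 hold 1.

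The tissues were checked with lists of marker miRNAs. All 5 neuronal markers were present, with summed levels of 258647 to 273413 CPM in FCx and 107402 to 170128 CPM in HP. The higher FCx sum came mainly from miR-128 (mean 193829 CPM against 81734 CPM in HP), while the means of miR-9 (27611 and 38984 CPM) and miR-138 (838 and 1203 CPM) were lower in FCx. The 8 epithelial markers summed to 1478 to 5702 CPM in FCx and 24.7 to 134 CPM in HP, where 1 of them (miR-96) was at 0, and the 7 choroid plexus and ependyma markers to 56.7 to 102 and 108 to 284 CPM. The sums of the 2 oligodendrocyte (529 to 1597 and 406 to 2307 CPM), 7 blood (99.6 to 183 and 69.3 to 181 CPM) and 4 vessel markers (274 to 691 and 272 to 839 CPM) overlapped between the regions. Their part in the levels of the members was not tested, and fewer cells of a type cannot be told apart from less RNA per cell in such samples.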

How the data were processed

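For each of 12 lane files the authors deposited read counts per mature miRNA (miRBase version 11), without normalization. They kept reads with an index, removed index and 3′ adaptor, discarded reads under 14 nt, by the stated filter, and aligned with Bowtie with up to 2 mismatches. The genome alignment files nevertheless hold 5.09% of alignments under 14 nt. In the genome alignment files, as deposited, the other values are the start and end of 1 alignment per read in NCBIM37, and their score column was not used.

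Lanes of a library were summed. Groups came from the sample titles, and CPM are counts per 1000000 miRNA counts. Regions and indexes were compared with edgeR 4.0.16 (R 4.3.3; quasi-likelihood test, TMM, Benjamini-Hochberg adjustment over 431 miRNAs, called under 0.05), and DESeq2 1.42.0 was an alternative. For the pairing of libraries, the mean of its region was first subtracted from the log2 CPM of each miRNA. Same-index libraries then correlated with r of 0.748, 0.841 and 0.829, so the index was also fitted as a block. The others gave -0.580 to -0.244, but the subtraction itself pushes these values below 0, so they say nothing further. Intervals are exact (Clopper-Pearson, 95%; for a ratio of CPM the exact conditional binomial interval), and the detection limit is 3 counts. Scripts were tested on simulated data. Further values used Python 3.11.15, pandas 2.3.3, numpy 2.4.6, scipy 1.17.1 and matplotlib 3.10.9.

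The named miRNAs are the 9 members, their star forms, 7 related miRNAs and, per cluster, the 3 most alike miRNAs of at least 100 CPM. The members and lists were chosen with earlier results of these data known. Alternatives changed normalization, filter, test, lanes, block and libraries. Genome annotation was GENCODE vM1.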

Additional observations from a re-analysis of the deposited data

How the results depend on the processing

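The limits are those of 1 RNA pool per region, 3 libraries and an index that each region shares. Without a block the count of miRNAs called between the regions was 8 with no filter, 12 with DESeq2's test, 14 with the exact test on the 12 lane files and 0 with pooled lanes only, against 2, and it lay between 0 and 7 when 1 library was left out. With the replicate block it was 77, with the replicate block and library totals 56, and 30, 41 and 51 with the block and without index 3, 7 or 11. The block alone gave 1 member called, miR-106b, and changed no call of another member.

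The sign of uncalled members moved with the scaling. For miR-92a FCx over HP was 0.17 on the log2 scale with DESeq2 size factors and with DESeq2's test, 0.36 with library totals, 0.14 with no filter and with individual lanes, 0.29 with the block and library totals and 0.31 with the exact test. Leaving out 1 library gave -0.18 to 0.46, and -0.07 to 0.19 with the block. For miR-25 it was 0.13 with library totals, 0.10 with the block and library totals and 0.064 with the exact test, -0.29 to 0.24 with 1 library left out and -0.35 to 0.24 with the block and 1 index left out. With 1 library left out it ran from -1.06 to 1.37 for miR-20a, from -1.60 to 0.37 for miR-106b and from -2.02 to 1.31 for miR-93. The positive values of miR-93 and miR-106b came without the HP library of index 11. The cause was not tested. For miR-17, whose FCx level rests on 1 count, no fitted fold is given, and the adjusted p lay between 0.980 and 0.998 with 1 library left out (unadjusted 0.0471 to 0.362).

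The HP sum of miR-17-92 was 324 CPM in individual and 460.4 CPM in pooled lanes. Without the members of 2 loci the FCx sum was 9.03 CPM and the HP sum 7.90 CPM, and the log2 ratio was 7.40 and 7.44. These values rest on few counts, with 8, 3 and 3 in the FCx libraries. Detection at 1 or 10 counts, hairpin reads by 5′ end and the number of members called for the index (2 to 4) stayed within 1.5 times of the values given.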
